A study of Mus musculus with 12 samples.

Results

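The 37 genes described here encode soluble enzymes of the lysosome, proteins of its membrane, the lysosomal protein progranulin and Tfeb, a transcription factor of lysosomal genes. They were taken from a list of names by a rule that uses no measured value, although the list was drawn up with earlier results of these data known, and all 37 were found among the 24421 genes of the deposited table. RNA came from whole adrenals of 2-month-old female mice on a mixed sv129-C57BL/6 background. In Abcg1 cKO mice (4 libraries) both alleles of the cholesterol exporter Abcg1 were conditional and exon 3 was removed by a Cre recombinase expressed from the aldosterone synthase (Cyp11b2) locus. In Abca1 cKO mice (4 libraries) the same Cre removed exons 46 and 47 of the related exporter Abca1. Control mice (4 libraries) were Cre-carrying littermates according to the labels, and the methods also name littermates with 1 of the conditional alleles as controls. Cyp11b2 is a gene of adrenocortical cells, and whole-gland RNA also holds transcripts of the medulla, vessels and blood cells, in which the Cre would not be expressed from this locus. In such RNA, fewer cells of a type and less RNA per cell cannot be told apart.

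Only averages over groups could be used for these genes. The authors' mean normalized count, a read count divided by a size factor for sequencing depth and averaged over libraries, is given for Abcg1 cKO and for control and Abca1 cKO as 1 group, here called the combined group. Single-library columns could not be matched to the labels, so that no spread between animals, no test and no separate value for control or Abca1 cKO is given. Every difference below is therefore a description of averages, and whether it exceeds the spread between mice was not assessed here. Differences are log2 ratios of the mean in Abcg1 cKO to that in the combined group, after 1 was added to both as a pseudocount. Where 2 means are set against each other, that of Abcg1 cKO comes first. A gene counted as past the fold when its ratio reached 1.2 in either direction, or 0.26 on the log2 scale.

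Lysosomes are acidic organelles in which about every class of macromolecule is broken down. Most of their enzymes are tagged with mannose 6-phosphate in the Golgi apparatus and handed over by receptors, while a proton pump, the V-ATPase, keeps the lumen acidic. In steroidogenic cells lysosomes also hydrolyse cholesteryl esters of lipoproteins that enter by endocytosis, and the freed cholesterol leaves through the NPC proteins. Many lysosomal genes share the CLEAR element in their promoters, whose core is the E-box CACGTG and which TFEB and its relatives bind.

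The letters of this element were looked up in RefSeq promoter windows of GRCm38.p6, the same build as the authors' mm10, each from 250 bases before to 50 bases after an annotated start. Windows were found for 34 of the 37 genes (40 windows), and not for Asah1, Ctsb and Ctsh. Of the 34 genes, 14 (41.2%) held CACGTG, which reads the same on both strands, against 8.09% of 27025 genes with a window and 11.3% of the 10916 of these that passed the filter on low values. The longer TCACGTGA, which contains CACGTG, was found in 5 genes (14.7% against 1.12% of all and 2.02% of those past the filter), and the full 10-letter palindrome, which is TCACGTGA with a further G before it and C after it, in 1 gene, Cln3 (2.94% against 0.37% and 0.76%). A match says only that these letters are in the window, and the data hold no measurement of binding. The 7 matches to TCACGTGA are printed because they are the closest to the full element, with the matching letters in capitals, and the Cln3 line is marked over all 10 letters.
Cln3: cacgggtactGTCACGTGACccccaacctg
Ctsd: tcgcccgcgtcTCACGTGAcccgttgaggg
Mcoln1: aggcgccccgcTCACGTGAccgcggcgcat
Gla, first site: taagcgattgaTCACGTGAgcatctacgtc
Gla, second site: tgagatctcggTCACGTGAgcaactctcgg
Ctsa, first site: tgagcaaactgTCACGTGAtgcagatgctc
Ctsa, second site: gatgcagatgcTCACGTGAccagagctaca

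The Cln3 stretch lies at chr7:126583340-126583369 on the minus strand, with its motif centred at -118 from the second of 2 annotated starts, where negative positions lie before the start. The Ctsd stretch lies at chr7:142387908-142387937 on the minus strand, at -95, and that of Mcoln1 at chr8:3500462-3500491 on the plus strand, at -42. The Gla sites, at chrX:134601215-134601244 and chrX:134601182-134601211 on the minus strand, are centred at -224 and -191. Those of Ctsa, at chr2:164833749-164833778 and chr2:164833766-164833795 on the plus strand, are centred at -9 and 8 from the second annotated start. Lamp1, which encodes the main glycoprotein of the lysosomal membrane, carried more copies of CACGTG than any other of the 34 genes. Its 250 bases before the start, chr8:13158911-13159160 on the plus strand, are shown for this reason, with the 4 copies in capitals.
Lamp1: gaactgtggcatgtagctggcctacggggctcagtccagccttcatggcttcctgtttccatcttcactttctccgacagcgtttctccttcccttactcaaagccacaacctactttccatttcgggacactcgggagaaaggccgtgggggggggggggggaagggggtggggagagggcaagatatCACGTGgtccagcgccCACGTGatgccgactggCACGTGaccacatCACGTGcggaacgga

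Over the 14 genes CACGTG occurred 22 times, and 15 of these lay within 100 bases of the start of their window. All but 1 of the 22 lay before that start, the exception being the second site of Ctsa. For Cln3, Ctsa, Ctsl and Lgmn that start is not the outermost one, and their sites lie inside the annotated gene. The Ctsl site, for example, is within chr13:64370739-64370768 on the minus strand, and the gene spans 64361890 to 64370772. By role, the letters were found in 5 of 7 protease genes with a window, 4 of 10 glycosidase genes, 3 of 6 membrane protein genes and 2 of 5 genes of sulfatases and Ppt1. They were in none of 4 genes of sphingolipid hydrolases and activators, nor in the windows of Grn and Tfeb.

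**Figure D1:**
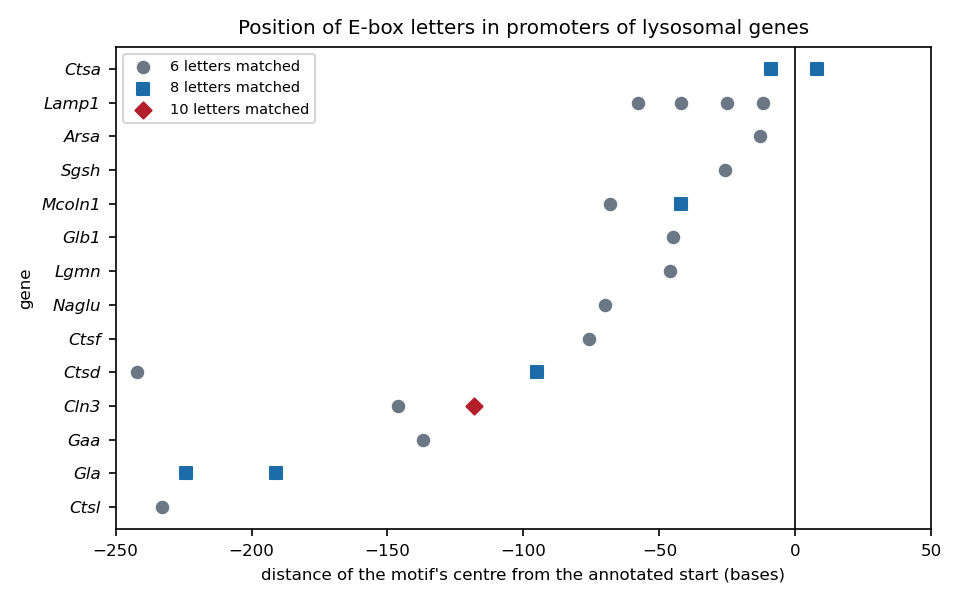
Distance in bases of each CACGTG from the annotated start of its window (x axis, 0 marks the start) for the 14 lysosomal genes whose promoter window holds it (y axis). For Cln3, Ctsa, Ctsl and Lgmn this start lies inside the annotated gene. Circles, squares and diamonds mark matches to 6, 8 and 10 letters of the CLEAR palindrome, and 15 of the 22 matches lie within 100 bases of the start.

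Lysosomal genes were abundant in the adrenal transcriptome, and the proteases Ctsd and Ctsb led them. Divided by kilobases of merged exons (GENCODE M21, GRCm38), 26 of the 37 genes lay in the top 25% of the 13961 genes that passed the filter and had a length, and 17 lay in the top 10%. In both groups the same genes held the first 5 places per kilobase, in the order Ctsd, Ctsb, Psap, Lamp1 and Ctsh. Ctsd, the aspartic protease cathepsin D, was at 13301 mean normalized counts per kilobase against 11946. Ctsb, the cysteine protease cathepsin B, was at 10086 and 8747 per kilobase, and Psap, the precursor of the 4 saposins, at 8031 and 7521. At the other end Tfeb was at 71.4 and 68.8 per kilobase, lower than any other of the 37 genes. The order per kilobase was the same in both groups for 27 genes, and no gene moved by more than 3 places. Neighbouring places cannot be separated, since no spread could be computed.

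Not divided by length, the 37 genes summed to 200204 mean normalized counts against 184431, which was 1.06% and 1.01% of the sum over all genes. Ctsb alone held 23.9% of the lysosomal sum against 22.5%, Ctsd 14.1% against 13.8%, and Psap 11.0% against 11.2%. The ratio of the sums was 1.09 with all 37 genes and 1.06 without Ctsb and Ctsd.

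**Figure D2:**
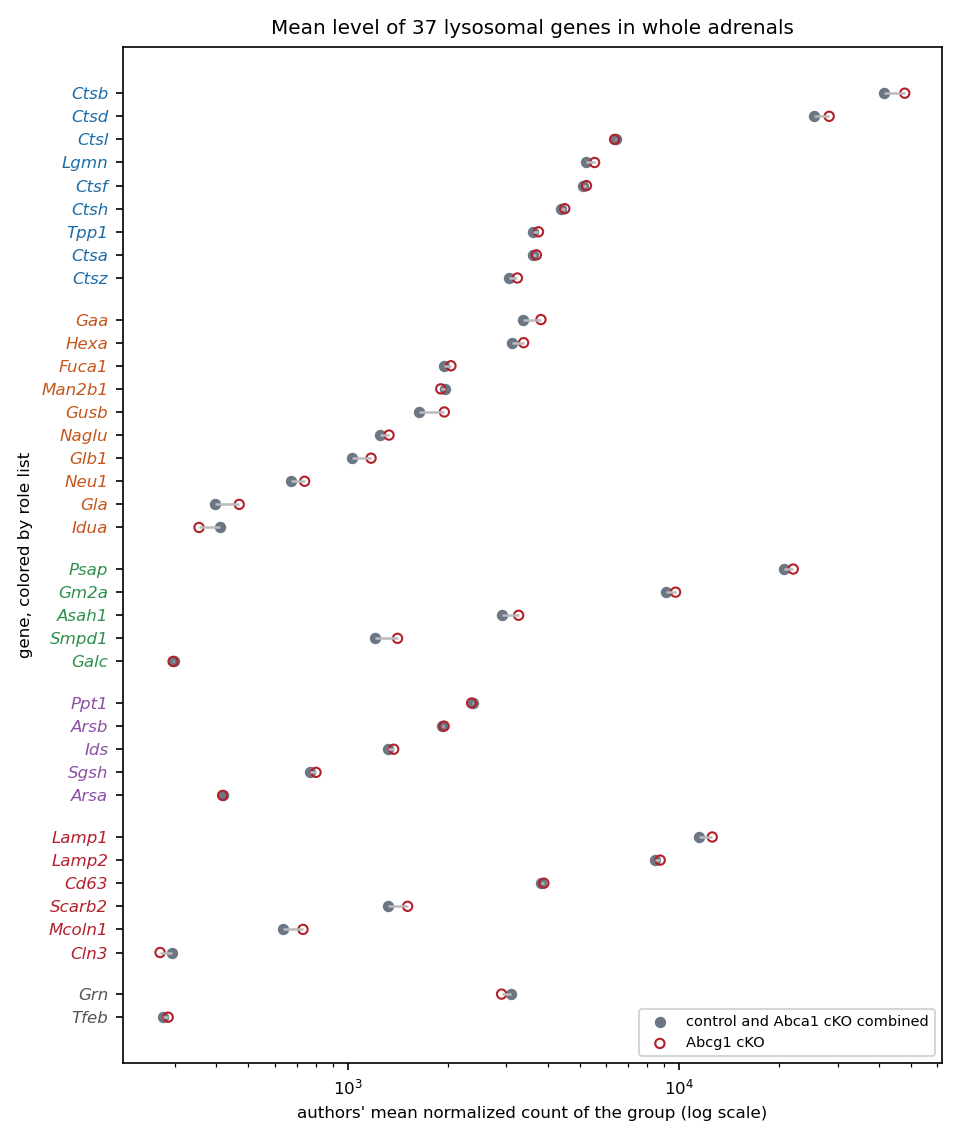
Authors' mean normalized count (x axis, log scale) of each of the 37 genes (y axis, colored by role and ordered by level within it) in Abcg1 cKO (open red circles) and in control and Abca1 cKO combined (filled gray circles), with no error bars because no spread could be computed. The pairs lie close together over the whole range, from Cln3 at 270.9 and 294.0 and Tfeb at 286.5 and 276.2 to Ctsb at 47838 and 41488 counts.

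By the authors' size factors, most lysosomal genes had a slightly higher mean in Abcg1 cKO adrenals, and none was past the fold. Of the 37 genes 29 had a log2 ratio above 0 and 8 below it, with a median of 0.07 and a range from -0.21 for Idua to 0.26 for Gusb. None was past 1.2-fold in either direction, while 23.4% of the 14479 genes with a mean of at least 10 in either group were, 10.8% higher and 12.6% lower. Since ratios scatter more at low counts, the same was counted over the 9161 genes with an overall mean of at least 250, near that of the lowest lysosomal gene. Of these 12.2% were past the fold, 7.61% higher and 4.55% lower, and 55.6% had a log2 ratio above 0, against 50.3% of the 14479 genes and 78.4% of the lysosomal genes. The 9161 genes are not matched to the lysosomal genes by level. By level not divided by length, 27 of the 37 lay in the top 25% of the 14479 genes. At a fold of 1.1, 10 lysosomal genes were past it as higher and 1 as lower, beside 22.3% and 24.1% of all genes (46.4% in either direction), and at a fold of 1.5 none was, beside 2.89% and 3.63% (6.52% in either direction). The lysosomal log2 ratios had quartiles at 0.03 and 0.15, where all 14479 genes had quartiles at -0.13 and 0.12 and a median of 0.00, and the 9161 genes quartiles at -0.08 and 0.11 and a median of 0.02. When the 2 groups were scaled to the same sum over all genes instead of by the authors' size factors, the lysosomal median was 0.02, 24 of 37 ratios were above 0 (39.8% of all genes), and Ctsa, Ctsf, Ctsh, Arsb and Cd63 changed sign. These sums include the ribosomal RNA entry Rn45s, at 116183 against 645559. Scaling without Rn45s would lower every ratio further and take the lysosomal median below 0. The sign of many of these small ratios thus depends on the scaling. Counts of genes under that scaling were not made.

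**Figure D3:**
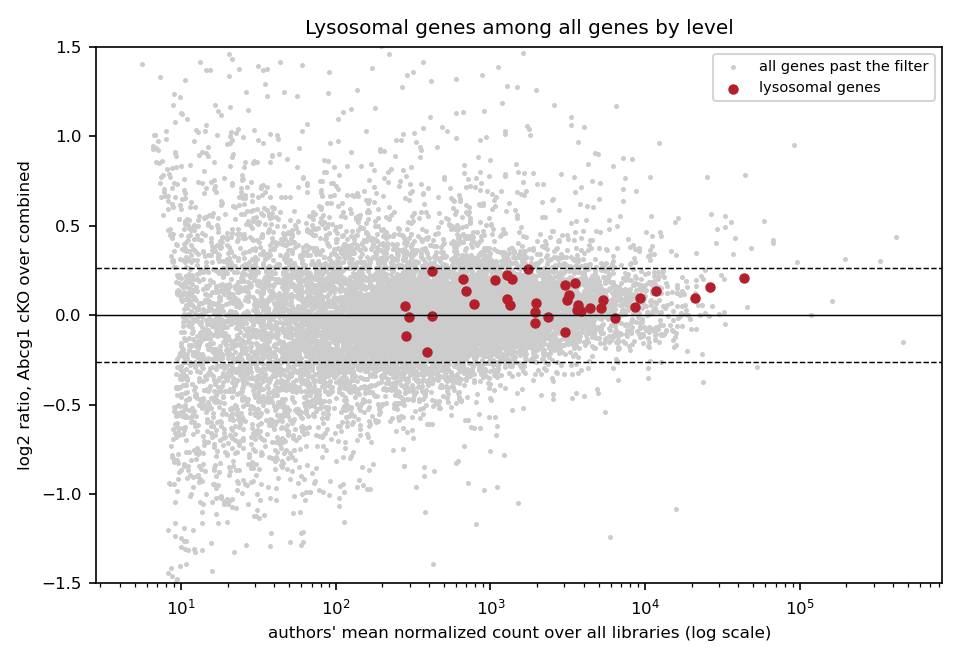
Log2 ratio of the group means, Abcg1 cKO over combined (y axis), against the authors' mean normalized count over all libraries (x axis, log scale) for 14479 genes (gray) and the 37 lysosomal genes (red), with dashed lines at 1.2-fold and 111 genes outside the plotted range of 1.5. All red points lie between the dashed lines, and the gray cloud widens towards low counts.

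Among the 9 proteases, 8 had a higher mean in Abcg1 cKO adrenals, with a median log2 ratio of 0.05. Ctsb (chromosome 14, 63122462 to 63145923) was at 47838 mean normalized counts against 41488, a log2 ratio of 0.21 and the highest of the proteases. Ctsd (chromosome 7, 142375910 to 142387827) was at 28291 against 25409, a log2 ratio of 0.16. In GENCODE M21, Ctsd shares 31.5% of its exon bases with Gm49369 on the same strand, and Ctsb 16.3% with Fdft1 on the opposite strand. The most abundant proteases thus had the largest ratios of their group. Ctsl, cathepsin L, was at 6370 against 6431 (log2 ratio -0.01), with 28.2% of its exon bases under genes annotated on the opposite strand. Lgmn, the asparaginyl endopeptidase legumain, and Ctsz, a carboxypeptidase, had log2 ratios of 0.09 and 0.09. Tpp1, the tripeptidyl peptidase lost in a form of neuronal ceroid lipofuscinosis, and Ctsh, Ctsf and Ctsa lay between 0.03 and 0.05.

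The 10 glycosidases spread more widely and held both ends of the whole set. Gusb, which encodes beta-glucuronidase (chromosome 5, 129989011 to 130003049), was at 1952 against 1634, a ratio of 1.19 and a log2 ratio of 0.26, just inside the fold. Gla, the alpha-galactosidase that is deficient in Fabry disease (chromosome X, 134588169 to 134601005), was at 469 against 395.6, also a ratio of 1.19. Idua, the alpha-iduronidase of heparan and dermatan sulfate breakdown (chromosome 5, 108660331 to 108685446), was at 355 against 410 (log2 ratio -0.21). It was the gene with the lowest ratio of the 37. Idua shares 5.56% of its exon bases with genes on the opposite strand, and Slc26a1, which lies within it, was at 2.57 and 3.81.

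Gaa, the acid alpha-glucosidase that degrades glycogen, led the glycosidases in counts not divided by length, at 3819 against 3371 (log2 ratio 0.18). Hexa, the alpha subunit of beta-hexosaminidase and the highest glycosidase per kilobase (1696 against 1570, Gaa 938 against 828), was at 3386 against 3133 (log2 ratio 0.11). Glb1, Neu1 and Ctsa encode beta-galactosidase, sialidase and protective protein, which form a complex, and had log2 ratios of 0.19, 0.14 and 0.03. Naglu and Fuca1 had log2 ratios of 0.09 and 0.07, and Man2b1, an alpha-mannosidase, was at 1904 against 1965 (log2 ratio -0.05).

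Of the 5 genes for breakdown of sphingolipids, 4 had a higher mean in Abcg1 cKO adrenals. Psap (chromosome 10, 60277628 to 60302600) was at 22036 against 20638, a log2 ratio of 0.09. Gm2a, the activator that presents ganglioside GM2 to hexosaminidase, was at 9732 against 9095, a log2 ratio of 0.10. Smpd1, the acid sphingomyelinase (chromosome 7, 105554360 to 105558389), had the largest log2 ratio of this group, 0.23, with means of 1410 and 1206. Asah1, the acid ceramidase, was at 3270 against 2907 (log2 ratio 0.17). Galc, the galactosylceramidase, was at 296.5 against 299.1 (log2 ratio -0.01).

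The sulfatases Sgsh, Ids, Arsa and Arsb and the thioesterase Ppt1, which removes fatty acids from proteins, had the narrowest range of log2 ratios of any role group. The values lay between -0.01 for Ppt1 and 0.06 for Sgsh, with a median of 0.02. Ppt1 was at 2360 against 2376 and Arsb at 1948 against 1923. Arsb shares 59.7% of its exon bases with unnamed genes on the opposite strand.

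Of the 6 membrane proteins 5 had a higher mean in Abcg1 cKO. Lamp1 (chromosome 8, 13159161 to 13175338) was at 12555 against 11446 and Lamp2 (chromosome X, 38399647 to 38456460), needed for chaperone-mediated autophagy, at 8745 against 8462, log2 ratios of 0.13 and 0.05. Mcoln1, which encodes the calcium channel mucolipin 1 and carries TCACGTGA in its promoter, was at 731 against 636, and Scarb2, which carries glucocerebrosidase to the lysosome, at 1512 against 1315. Both had a log2 ratio of 0.20, the highest of the membrane proteins. Cd63, a tetraspanin of late endosomes, had a log2 ratio of 0.03. Cln3, a membrane protein lost in juvenile neuronal ceroid lipofuscinosis and the carrier of the full palindrome, was at 270.9 against 294.0 (log2 ratio -0.12), and with Idua it was the only member below -0.1.

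Tfeb (chromosome 17, 47737037 to 47792416) was at 286.5 against 276.2, a log2 ratio of 0.05. Grn, the precursor of progranulin and its granulins, was at 2905 against 3099, a log2 ratio of -0.09. Grn had the lowest ratio of the 37 genes after Idua and Cln3.

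**Figure D4:**
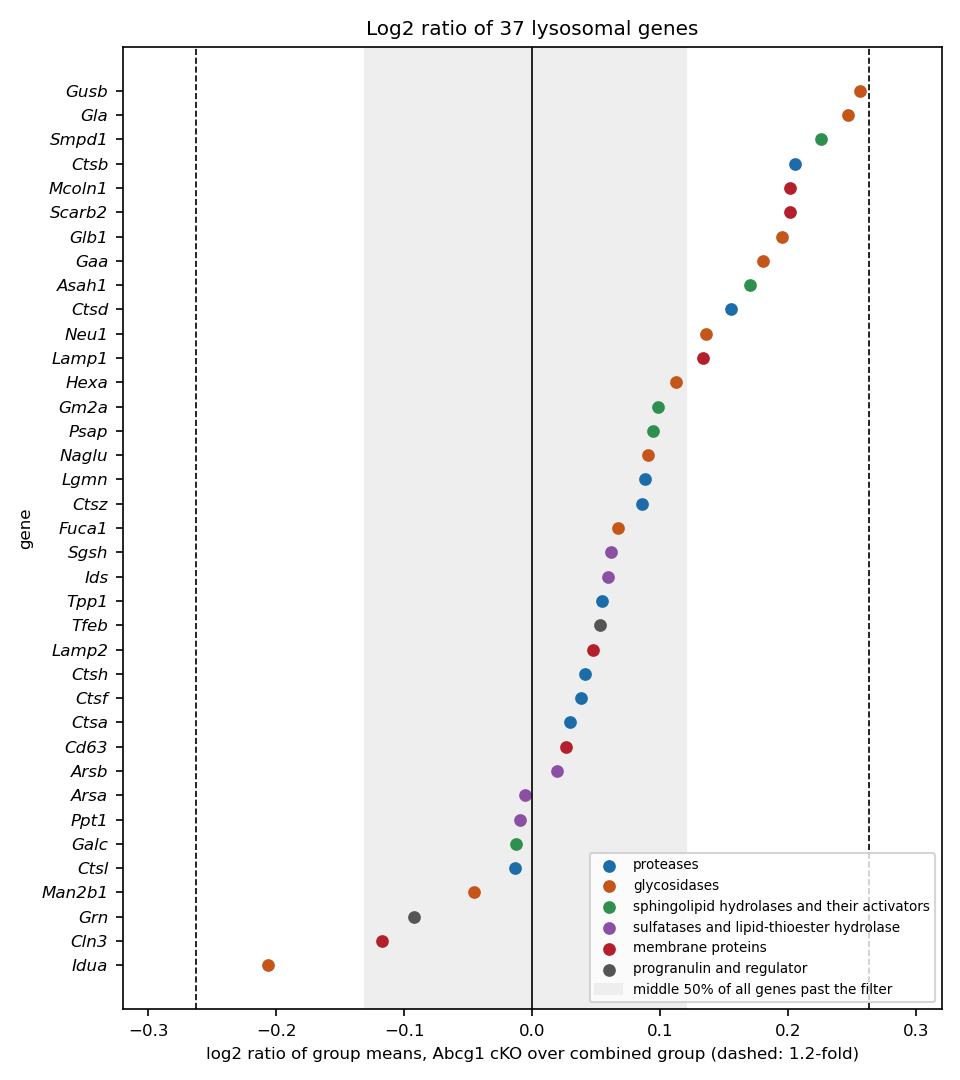
Log2 ratio of the group means, Abcg1 cKO over the combined group (x axis), for the 37 genes in order of ratio (y axis), colored by role, with dashed lines at 1.2-fold and a gray band over the middle 50% of all genes past the filter. Gusb at 0.26 and Idua at -0.21 are the ends of the range, and no point reaches a dashed line.

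Genes with and without the letters in the promoter overlapped over most of their range of ratios. The 14 genes with CACGTG had a median log2 ratio of 0.09, with 11 above 0 and a range from -0.12 to 0.25. The 20 genes whose window lacked it had a median of 0.06, with 15 above 0 and a range from -0.21 to 0.26. Of the 5 genes with TCACGTGA, Gla, Mcoln1, Ctsd and Ctsa had log2 ratios of 0.25, 0.20, 0.16 and 0.03, and Cln3 one of -0.12. No test was made, as genes are not replicates of a condition.

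Other genes of the lysosome or of functions linked to it, such as autophagy and cholesterol uptake by Scarb1, were counted in the same way. They were taken from 7 lists that do not hold the 37 genes. All 130 genes listed were in the table, 2 of them under the older symbols Tmem55a and Tmem55b, and 128 passed the filter. Of these 89 (69.5%) had a log2 ratio above 0, against 50.3% of all genes, the median was 0.07, and 8 were past the fold as higher and 5 as lower, beside 10.8% and 12.6% of all genes. Scaled to the same sum with Rn45s included, 75 had a ratio above 0, the median was 0.02, and 4 were higher and 7 lower (all genes 1238 and 2281, against 1561 and 1829 before).

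All 15 measured V-ATPase genes had a log2 ratio above 0, with a median of 0.13. After scaling to the same sum 14 of them did, with Atp6v0e below 0, and without Rn45s in that sum fewer would. By the authors' size factors they ranged from 0.00 for Atp6v0e to 0.32 for Atp6v1b2, a subunit of the ATP-hydrolysing part. Atp6v1b2 was at 4119 against 3306 and was the only one past the fold. Atp6v0c, which encodes the proton-carrying ring subunit, was listed at 0 in both groups. The authors counted only uniquely mapped reads, and whether this 0 means absent RNA was not tested. Of 29 other hydrolases and activators, 4 were past the fold as higher and 2 as lower, with a median of 0.11. Acp5, the tartrate-resistant acid phosphatase, was the highest at 736 against 449 (log2 ratio 0.71). Rnaset2b, at 254 against 341, was the lowest, and its near-identical copy Rnaset2a was listed at 0, so that the split of reads between them is uncertain.

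Of the 8 genes of cholesterol handling, 7 had a log2 ratio above 0, 2 were past the fold as higher, Scarb1 and Osbpl1a, and the median was 0.14. Scarb1, the receptor for selective uptake from high-density lipoprotein, was at 34944 against 20445 (log2 ratio 0.77). Lipa, the lysosomal acid lipase that frees cholesterol from its esters, was at 9729 against 8622 (log2 ratio 0.17). Npc2, which binds cholesterol in the lumen, was at 4374 against 3720 (log2 ratio 0.23), and Npc1, the membrane protein that takes cholesterol over, at 1536 against 1535 (log2 ratio 0.00). Stard3, a sterol carrier between endosomes and the endoplasmic reticulum, was the lowest of the list at -0.06.

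Genes for delivery of hydrolases had a median of 0.08, from -0.29 for the adaptor Gga3, which was past the fold, to 0.21 for Igf2r, the large mannose 6-phosphate receptor. The other 23 measured membrane proteins of the lysosome had a median of 0.04, from -0.31 for the channel Tpcn2, which was past the fold, to 0.20 for Laptm4b. In the list of TFEB relatives and the mTORC1 platform on the lysosome the median was 0.00. Tfe3 was at 724 against 743 (log2 ratio -0.04) and Mitf at 237 against 196 (log2 ratio 0.28, past the fold), and Tfec, at 11.8 against 17.3, was the lowest of the list (log2 ratio -0.52, past the fold). None of 17 autophagy genes was past the fold, with a median of 0.05 and a range from -0.16 for Wipi1 to 0.22 for Sqstm1, the cargo receptor p62.

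**Figure D5:**
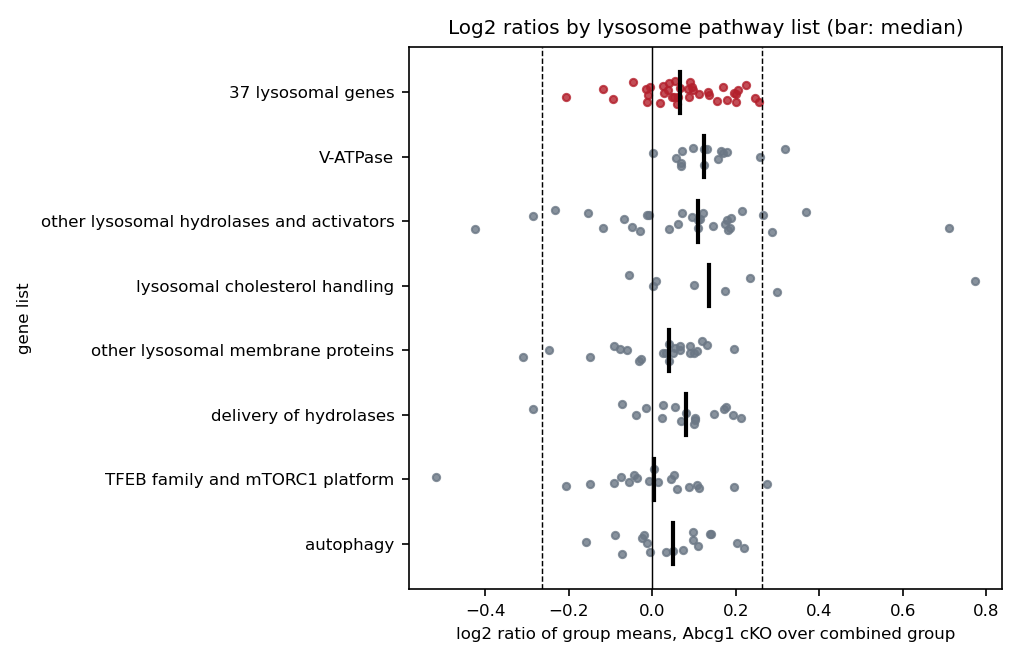
Log2 ratio of the group means, Abcg1 cKO over combined (x axis), for the 37 lysosomal genes (red) and for 7 further lists of lysosome-related genes (gray), 1 point per gene past the filter, with a black bar at each median and dashed lines at 1.2-fold. The V-ATPase points lie between 0.00 and 0.32 (Atp6v0e lies below 0 when both groups are scaled to the same sum with Rn45s included), and the points furthest right are Scarb1 at 0.77 and Acp5 at 0.71.

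Markers of cell types in the gland differed between the groups as well, and their part in the lysosomal ratios was not tested. Macrophages are rich in lysosomes, and of their 13 markers 1 was past the fold as higher (Cd163) and 2 as lower (Cd68 and Aif1), none at 0, with sums of 18242 against 19013 and a median log2 ratio of -0.08. Beside these counts, 10.8% of all genes were past the fold as higher and 12.6% as lower. Of 11 cortex markers 6 were past the fold, all higher (sums 1763670 and 1515380, median 0.30). The log2 ratio was below 0 for 3 of the 11, down to -0.25 for Dab2. All 7 medulla markers were higher past the fold (sums 177775 and 130724), as were all 8 adipocyte markers (sums 45166 and 20362), and none of these was at 0. Of 9 lymphocyte markers past the filter 8 were lower past the fold (sums over 10 markers 105 and 184), and of 6 endothelial markers none was (sums 12642 and 13551). The mean of Abcg1, counted over the whole gene, was 249.7 against 305.4 (log2 ratio -0.29), and that of Abca1, with the Abca1 cKO libraries in the combined group, 10057 against 7791.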

How the data were processed

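Whole-adrenal RNA was polyA-selected, made into stranded libraries and sequenced on NovaSeq and NextSeq instruments, with no source saying which library ran on which. Per the labels and the methods, the authors used bcl2fastq 2.20.0.422, cutadapt 4.0, FastQC 0.11.9, STAR 2.7.10a (mm10), HTSeq 0.13.5 and DESeq2 1.38.3. Whether counting used strand is not stated in the methods. The deposited signal values are counts divided by size factors and averaged over the libraries of a group. The overall mean equalled the average of both group means, weighted 8 to 4, for all 24421 genes. Depth per library is unknown, and without replicate values no interval is given.

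Not used were 12 columns of single libraries, whose names match no label, and 4 columns of the authors' own comparison (fold change, its error and p-values). The planned limma fits were therefore not made. Log2 ratios were computed in Python 3.11.15 with pandas 2.3.3 and NumPy 2.4.6. The step was checked on means with known folds and no noise, which tests the arithmetic only. The filter kept genes with a mean of at least 10 in either group. Exon lengths and overlaps came from GENCODE M21, positions and promoters from RefSeq (GRCm38.p6). The authors used an mm10 reference from iGenomes, and its gene models may differ from those of GENCODE M21. Of the 37 genes, 8 share over 10% of their exon bases with another gene: Ctsb, Ctsd, Sgsh, Ctsa, Arsb, Arsa, Ctsl and Cln3.

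The 37 genes and the lists were chosen with earlier results of these data known. Values were given for the first 2 genes by level per role, those past the fold, the 5 highest and 5 lowest ratios, Tfeb, Lamp1, Lamp2, Ctsd and Psap, the ends of each further list, and Lipa, Npc1, Npc2, Tfe3 and Mitf. Alternatives were other pseudocounts, filters, folds, centring and scaling. Some genes of the further lists are not reported here.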

Additional observations from a re-analysis of the deposited data

How the results depend on the processing

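No paired analysis was possible because no column of a single library could be matched to a label, and for the same reason the planned limma and edgeR fits, the fits without each replicate and the comparisons with control alone were not run. With pseudocounts of 0.1 and 10, with no filter, with a mean of at least 50 and centring on the median of all genes, none of the 37 genes was past 1.2-fold, 29 had a ratio above 0 and the median stayed at 0.07. At a fold of 1.1, 10 of the 37 genes were higher and 1 lower (46.4% of all genes past it in either direction), and of the 128 further genes 33 were higher and 12 lower. At a fold of 1.5, none of the 37 was past it (6.52% of all genes), and of the further genes 2 were higher and 0 lower. Choices added after seeing the data were an overall mean of at least 250, with which 12.2% of all genes were past 1.2-fold, and scaling to the same sum, with which the median was 0.022 for the 37 genes and 0.024 for the further genes, of which 4 were higher. This scaling lowers every ratio by 0.04, since the means sum to 1.03 times as much in Abcg1 cKO. Rn45s is part of these sums, at 116183 against 645559. Scaling without it would lower every ratio further and take both medians below 0, and counts of genes under it were not made. Without division by length 27 genes lay in the top 25% by level (26 with it). The letters CACGTG, TCACGTGA and the 10-letter palindrome gave 14, 5 and 1 genes. Counts cannot show which differences exceed the spread between mice.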

Other observations

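Promoter windows of the further lysosome-related genes held the E-box as well. Of 99 genes of the 7 lists with a window 23 held CACGTG (23.2%), 12 TCACGTGA (12.1%) and 2 the 10-letter palindrome (2.02%), the last being Igf2r and Vps33a, against 8.09%, 1.12% and 0.37% of all genes with a window and 11.3%, 2.02% and 0.76% of those past the filter on low values. By list, CACGTG was found in 4 of 11 V-ATPase genes, 3 of 21 other hydrolases, 4 of 19 other membrane proteins, 4 of 12 genes of hydrolase delivery, 6 of 18 of the TFEB and mTORC1 list and 2 of 13 autophagy genes. It was in none of the 5 windows of the cholesterol handling list. These are shares of letters in windows, given with no test.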
